A study of Mus musculus with 11 samples.

Results

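The genes of the chemokines, the interleukins and their receptors were examined in mouse bone marrow cells in which a leukaemia mutation of CSF3R and one of CEBPA had been introduced in either order. Members were the protein-coding genes whose mouse symbol names a CC or CXC chemokine (Ccl, Cxcl), a receptor of these (Ccr, Cxcr) or an interleukin or interleukin receptor (Il), with at least 10 counts in at least 3 of the 11 samples. Of 51912 genes in the table, 87 met the rule: 20 chemokine ligands, 13 chemokine receptors, 16 interleukin ligands, 33 interleukin receptor subunits, 4 antagonists, decoys or binding proteins (Il1r2, Il1rn, Il18bp and Il22ra2) and Il4i1, an enzyme named after an interleukin. A further 46 coding genes with such a symbol stayed below the minimum. Of these, 24 had no count in any sample, among them Il3, Il9, Cxcl12 and Ccl11, and the other 22 held at most 56 counts over all samples. Cxcl11, annotated as a polymorphic pseudogene, and Il1bos, an antisense RNA that runs across the start of Il1b, were left out by the rule.

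All samples were lineage-negative C57BL/6 bone marrow cells carrying a pair of retroviral vectors, one with green and one with red fluorescence, sorted for both and then cultured for 48 h without added cytokines but with serum and 4-hydroxytamoxifen (4-OHT). By the study's methods the marrow came from mice with a tamoxifen-activated Cre recombinase at Rosa26, so that 4-OHT switched on the insert of the red vector in every group, and by the labels the cells had met IL-3, IL-6 and stem cell factor during transduction. CSF3R-only (n = 4, replicates A to D) carried CSF3R T618I, a mutation that activates the receptor of granulocyte colony-stimulating factor, in the constitutive vector and an empty inducible vector. CSF3R-first (n = 3, A to C) carried the same constitutive CSF3R T618I, and 4-OHT added CEBPA V314VW, an insertion in the DNA-binding domain of a transcription factor of myeloid differentiation. CEBPA-first (n = 4, A to D) carried constitutive CEBPA V314VW, and 4-OHT added CSF3R T618I. There was no sample without CSF3R T618I, both inserts were driven by the vectors rather than by the cells' own promoters, and the labels do not say whether replicates came from separate animals, so p-values measure the spread between these samples, which may be technical. Total counts ranged from 47905747 to 72268346 per sample. The mouse genes named after the inserts were at 846, 516 and 154 CPM (Csf3r) and 87.2, 131 and 167 CPM (Cebpa) on average in the 3 groups, in the order CSF3R-only, CSF3R-first, CEBPA-first, and whether reads of the inserts count there is not given in the sources used here.

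Chemokines are small secreted proteins that direct the migration of leukocytes through receptors with 7 membrane spans. CXC chemokines that bind Cxcr2 recruit neutrophils, and many CC chemokines recruit monocytes, eosinophils or lymphocytes. Interleukins signal through paired receptor chains: IL-1, IL-33 and IL-36 work through receptors that share Il1rap, IL-18 through Il18r1 and Il18rap, the IL-6 family through Il6st (gp130), IL-2, IL-4, IL-7, IL-9, IL-15 and IL-21 through Il2rg (the common gamma chain), and IL-10 relatives through chains such as Il10rb. In marrow, maturing neutrophils and monocytes are known as major sources of IL-1 family cytokines and of several chemokines, and Cxcr2 guides the release of mature neutrophils.

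Levels are given as CPM, read counts brought to a common library size with TMM (the trimmed mean of M-values), and differences as log2 fold changes (log2FC). The members together took 0.771% to 0.809% of all counts in the CSF3R-only libraries, 0.553% to 0.714% in those of CSF3R-first and 0.407% to 0.487% in those of CEBPA-first. The 36 ligands summed to 2550, 2560, 2540 and 2390 CPM in CSF3R-only, 1910, 1230 and 1440 CPM in CSF3R-first and 952, 817, 980 and 836 CPM in CEBPA-first. The 46 receptors summed to 5520, 5250, 5000 and 5090 CPM in CSF3R-only, 4790, 3710 and 3980 CPM in CSF3R-first and 3310, 3210, 3360 and 2750 CPM in CEBPA-first. For both classes the 3 groups did not overlap, with CSF3R-only highest and CEBPA-first lowest. Per length, Ccl6 had the highest level among the members in each group, at 538, 386 and 245 CPM per kb of exon in the same order of groups, followed in CSF3R-only by Il1r2 (272) and Ccr1 (236) and in CEBPA-first by Il4ra (180) and Il1r2 (116).

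Most of the members that differed were lower in the cells that had received CEBPA V314VW first. In CEBPA-first against CSF3R-only, 38 of the 83 members that could be tested were called lower and 8 higher, where a call needs a Benjamini-Hochberg adjusted p under 0.05 over all 15703 genes tested with edgeR's quasi-likelihood test and a log2FC of at least 1 in size. Lower calls made up 45.8% of the tested members against 19.0% of all genes tested, and higher calls 9.64% against 8.07%, together 55.4% against 27.0%. The median log2FC over the members was -0.83, beside 0.00 over all genes. In CSF3R-first against CSF3R-only, 7 members were called lower and 4 higher, 8.43% and 4.82% of those tested, beside 4.53% and 2.13% of all genes (13.3% against 6.65% in either direction). In CEBPA-first against CSF3R-first, the comparison of both mutation orders, 24 members were called lower and 7 higher, 28.9% and 8.43%, beside 10.3% and 2.57% of all genes (37.3% against 12.8% in either direction). Between both orders each mutation also changed its vector and the time it had to act, and these cannot be told apart from the order itself. By the adjusted p alone, whatever the size of the difference, 68, 40 and 52 members passed in these comparisons, while 72.0%, 42.7% and 48.3% of all genes did. The median log2FC was -0.41 in CSF3R-first against CSF3R-only and -0.50 between both orders, beside -0.02 and 0.00 over all genes. The first 2 comparisons share the CSF3R-only samples.

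Some members entered the list, or the test, through the group in which they were high. Among the 66 members with at least 10 counts in every sample, 29 were called lower and 4 higher in CEBPA-first against CSF3R-only, 43.9% and 6.06%, beside 15.2% and 6.89% of the 13025 genes with such counts. For CSF3R-first against CSF3R-only the numbers among these 66 were 5 lower and 2 higher, 7.58% and 3.03% beside 3.09% and 1.17% of those genes. For CEBPA-first against CSF3R-first they were 16 lower and 3 higher, 24.2% and 4.55% beside 7.62% and 1.57%. The samples of the groups did not overlap for 60, 39 and 53 of the 83 tested members in the 3 comparisons, in the order above, which is 72.3%, 47.0% and 63.9%, against 68.7%, 42.1% and 52.2% of all genes. The mean of CSF3R-first lay between those of the other groups in 58 members (69.9%), a smaller share than the 76.1% over all genes. Cxcl15, Il2, Il17rc and Il17re had too few counts to be tested and lay at or below 0.304 CPM in every sample.

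Marker genes moved along with the members. The 11 neutrophil markers summed to 26800 to 33300 CPM over the CSF3R-only samples, 14600 to 25500 CPM over those of CSF3R-first and 6460 to 8570 CPM over those of CEBPA-first, and 10 of 11 were called lower in CEBPA-first against CSF3R-only. The 10 monocyte and macrophage markers summed to 2880 to 3680, 1540 to 2850 and 838 to 1220 CPM, with 9 called lower. All 5 tested eosinophil markers, all 6 megakaryocyte and platelet markers and 4 of 5 erythroid markers were called lower too. In the same comparison 19.0% of all genes were called lower and 8.07% higher. Of 10 tested stem and progenitor markers, 5 were called higher and 3 lower, and of the few tested markers of other types, 1 higher and 2 lower of 4 (dendritic cell), 1 higher and 2 lower of 3 (T and NK cell), 1 lower of 2 (B cell) and 2 higher and 1 lower of 5 (stromal and endothelial). RNA was taken from whole cell populations, in which fewer cells of a type and less RNA per cell cannot be told apart, and the part of cell composition in the results that follow was not tested. Among the T and NK cell markers, Cd3e and Ncr1 had no count in any sample, while Nkg7 was at 109, 57.6 and 48.8 CPM on average in the groups, in the same order as before, and Klrb1c, called higher in CEBPA-first against CSF3R-only, at 0.0778, 0.158 and 0.647 CPM. Of the stromal markers, Col3a1 had no count, while Col1a2 (0.167, 0.148 and 3.43 CPM) and Pdgfrb (5.61, 8.9 and 17 CPM) were called higher in that comparison.

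**Figure D1:**
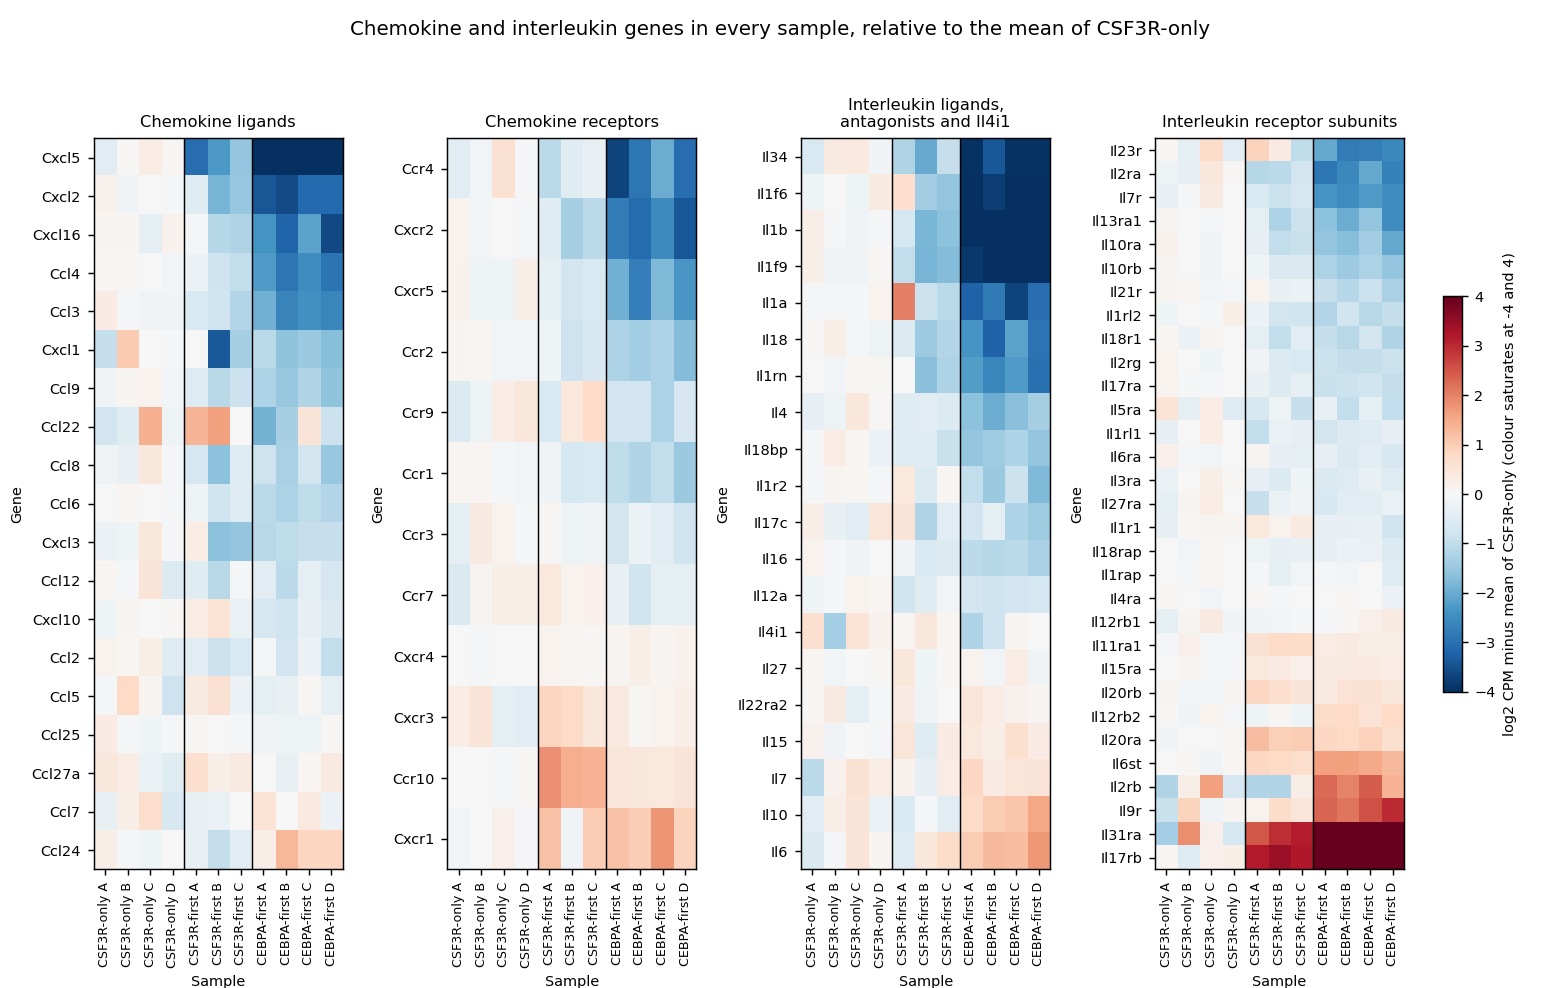
Heat maps of 82 of the 83 tested members (rows, sorted within each panel by log2 fold change in CEBPA-first against CSF3R-only) in the 11 samples (columns); colour gives log2 CPM minus the mean of CSF3R-only, saturated at -4 and 4. Ligands of the IL-1 family and CXC chemokines are among the darkest blue in CEBPA-first, Il17rb and Il31ra are reddest, and CSF3R-first replicate A is paler than B and C for many genes.

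With all samples, 9 members were called in each of the 3 comparisons, which share samples: 7 of 83 tested (8.43%) were lower in all and 2 (2.41%) higher in all, beside 3.06% and 0.669% of all genes. Lower in all were Cxcl5 (ENSMUSG00000029371, chr5:90759360-90761624), Cxcl2 (ENSMUSG00000058427, chr5:90903871-90905938), Il1b (ENSMUSG00000027398, chr2:129364570-129371139), Il1f9 (ENSMUSG00000044103, chr2:24186476-24193568), Il18 (ENSMUSG00000039217, chr9:50554827-50581840), Il34 (ENSMUSG00000031750, chr8:110741829-110805924) and Il2ra (ENSMUSG00000026770, chr2:11642807-11693193). Higher in all were Il17rb (ENSMUSG00000015966, chr14:29996135-30008896) and Il31ra (ENSMUSG00000050377, chr13:112519898-112594360), and positions are those of the GRCm38 annotation. Il17rb, Il31ra, Cxcl5 and Il34 had at least 10 counts in only 7, 10, 7 and 6 of the 11 samples, and fewer in samples of groups where they were low. The shares called in all 3 comparisons were not taken among members with such counts in every sample. In CSF3R-first against CSF3R-only the calls of Cxcl2 and Il34 were lost without CSF3R-first replicate B, where their log2FC was -0.91 and -1.21, and those of Il18 and Il2ra were lost without that library or any of several others. The promoters of the 3 most abundant of those that fell and of both that rose are shown because these members were called in each comparison; each is the 250 bases before the transcription start in RefSeq on GRCm38.p6, 5′ to 3′ on the gene's strand. Capitals mark matches, on either strand, to the letters TTCNNNGAA (STAT), TGANTCA (AP-1), TTGCNNAA (C/EBP) or to the NF-kB motif. The windows are chr2:129371140-129371389 (minus strand), chr2:24186226-24186475 (plus strand), chr5:90903649-90903898 (plus strand), chr14:30008897-30009146 (minus strand) and chr13:112580663-112580912 (minus strand) in the order shown.
Il1b: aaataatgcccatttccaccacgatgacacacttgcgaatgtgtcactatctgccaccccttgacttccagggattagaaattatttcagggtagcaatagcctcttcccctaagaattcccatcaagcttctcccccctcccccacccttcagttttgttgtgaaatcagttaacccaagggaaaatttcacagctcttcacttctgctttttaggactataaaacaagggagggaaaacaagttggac
Il1f9: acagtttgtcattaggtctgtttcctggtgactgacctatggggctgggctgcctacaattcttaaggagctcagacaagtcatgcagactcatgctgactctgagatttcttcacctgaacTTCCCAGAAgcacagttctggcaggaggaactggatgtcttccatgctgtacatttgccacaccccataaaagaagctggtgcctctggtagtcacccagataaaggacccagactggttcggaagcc
Cxcl2: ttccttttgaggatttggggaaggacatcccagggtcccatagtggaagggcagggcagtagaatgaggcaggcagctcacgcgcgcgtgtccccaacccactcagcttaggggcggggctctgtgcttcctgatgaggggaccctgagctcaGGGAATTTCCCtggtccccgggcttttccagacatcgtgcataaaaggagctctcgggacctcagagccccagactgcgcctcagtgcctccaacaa
Il17rb: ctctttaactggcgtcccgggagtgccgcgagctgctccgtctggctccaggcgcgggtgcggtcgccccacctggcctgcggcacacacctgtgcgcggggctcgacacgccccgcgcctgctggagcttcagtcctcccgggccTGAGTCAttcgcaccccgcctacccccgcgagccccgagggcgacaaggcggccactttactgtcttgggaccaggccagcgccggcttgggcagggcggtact
Il31ra: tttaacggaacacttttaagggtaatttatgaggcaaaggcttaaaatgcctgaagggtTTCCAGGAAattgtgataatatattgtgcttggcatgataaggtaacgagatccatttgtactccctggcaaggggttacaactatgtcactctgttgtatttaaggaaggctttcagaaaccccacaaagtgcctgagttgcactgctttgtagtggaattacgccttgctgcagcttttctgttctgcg

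The Il1b window held none of the 4 letter patterns, that of Il1f9 a STAT match 128 to 120 bases before the start, that of Cxcl2 overlapping NF-kB matches between 97 and 87 bases before it, that of Il17rb an AP-1 match at 104 to 98 bases and that of Il31ra a STAT match at 191 to 183 bases. A RefSeq promoter was found for 63 of the 87 members. C/EBP letters were in 12 of these (19.0%), against 10.8% of 27018 genes in the same table, AP-1 letters in 20.6% against 7.82%, the NF-kB motif in 15.9% against 6.73% and STAT letters in 9.52% against 8.13%. Among the 29 of these members that were lower in CEBPA-first against CSF3R-only the shares were 20.7% (C/EBP), 17.2% (AP-1), 20.7% (NF-kB) and 13.8% (STAT), and among the 24 that were not called they were 20.8%, 25.0%, 12.5% and 4.17%. A match is a description of the letters and not a binding site.

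Of the 19 tested chemokine ligands, 10 were called lower in CEBPA-first against CSF3R-only, 2 (Cxcl2 and Cxcl5) in CSF3R-first against CSF3R-only, and 6 in CEBPA-first against CSF3R-first, which is 52.6%, 10.5% and 31.6%, beside 19.0%, 4.53% and 10.3% of all genes. Calls of a higher level numbered 0, 0 and 1 with edgeR's quasi-likelihood test (1 and 0 in the first 2 comparisons at an unadjusted p under 0.05, and 0 called by DESeq2 in either). That is 0%, 0% and 5.26% higher, beside 8.07%, 2.13% and 2.57% of all genes. Ligands of Cxcr2, which draw neutrophils, were among those called lower. Cxcl2 was at 51.6, 41.5, 45.9 and 43.3 CPM in the CSF3R-only samples, 32.6, 12.4 and 15.9 CPM in the CSF3R-first samples and 4.21, 3.77, 5.2 and 5.26 CPM in the CEBPA-first samples. Every CEBPA-first sample lay below every CSF3R-first sample, and these below every CSF3R-only sample. The level in CEBPA-first was 9.86-fold lower than in CSF3R-only (log2FC -3.3 ± 0.25 (SE), adjusted p = 1.5e-07) and 4.39-fold lower than in CSF3R-first (log2FC -2.13 ± 0.26, adjusted p = 4.3e-05). Cxcl5, another ligand of Cxcr2, was at 3.15, 4.49, 5.34 and 4.61 CPM in the CSF3R-only samples, 0.487, 0.845 and 1.47 CPM in the CSF3R-first samples and 0, 0.0511, 0.0192 and 0.0255 CPM in the CEBPA-first samples. The 4 CEBPA-first libraries held 6 counts of it in all (0, 3, 1 and 2), against 146 to 291 counts per CSF3R-only library. Cxcl3 was at 11.6, 12.1, 18.8 and 13.4 CPM in the CSF3R-only samples, 16.9, 4.33 and 4.71 CPM in the CSF3R-first samples and 6.26, 6.7, 7.28 and 7.27 CPM in the CEBPA-first samples, and in it CSF3R-first overlapped both other groups because replicate A was higher than B and C. Its call in CEBPA-first against CSF3R-only (log2FC -1.02 ± 0.35) was lost without CSF3R-only replicate C or CEBPA-first replicate A. Cxcl1 had 0 to 36 counts per library, and its lower call (log2FC -1.93 ± 0.66) was lost without CSF3R-only replicate B, where the log2FC was -1.43. Cxcl2 shares 5.61% of its transcript with Cxcl3 at 97% identity or more, so that some reads may have been split between them.

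Of the CC chemokines, Ccl3, Ccl4, Ccl6, Ccl8 and Ccl9 were called lower in CEBPA-first against CSF3R-only. Ccl3 (MIP-1 alpha), a ligand of Ccr1, was at 63.1, 48, 45.8 and 45.3 CPM in the CSF3R-only samples, 33, 29 and 22.4 CPM in the CSF3R-first samples and 13.3, 7.93, 9.41 and 8.16 CPM in the CEBPA-first samples. Its neighbour Ccl4 (MIP-1 beta), another chemokine of monocytes, was at 44.5, 44.6, 44 and 40.5 CPM in the CSF3R-only samples, 36.9, 24.2 and 22 CPM in the CSF3R-first samples and 8.92, 5.76, 7.62 and 5.72 CPM in the CEBPA-first samples. In both genes all 3 groups stood apart, and the level in CEBPA-first was 5.22-fold and 6.21-fold lower than in CSF3R-only. Ccl6, a myeloid chemokine that binds Ccr1, was at 964, 1010, 977 and 909 CPM in the CSF3R-only samples, 846, 556 and 679 CPM in the CSF3R-first samples and 457, 399, 477 and 426 CPM in the CEBPA-first samples. Ccl9, which also binds Ccr1, was at 598, 714, 733 and 611 CPM in the CSF3R-only samples, 463, 306 and 366 CPM in the CSF3R-first samples and 282, 231, 289 and 215 CPM in the CEBPA-first samples. These abundant ligands differed by less than Ccl3 and Ccl4, with log2FC -1.13 ± 0.11 and -1.38 ± 0.13 in CEBPA-first against CSF3R-only, and their differences of -0.66 and -0.57 between both orders did not reach the size needed for a call. Cxcl16, a membrane-bound chemokine that binds Cxcr6, was at 29, 29.1, 20.6 and 30.1 CPM in the CSF3R-only samples, 25.3, 12.1 and 11.7 CPM in the CSF3R-first samples and 5.15, 2.9, 6.11 and 2.16 CPM in the CEBPA-first samples. Its CSF3R-first replicate A lay within the CSF3R-only range and B and C below it, while CEBPA-first lay below all of them (log2FC -2.75 ± 0.33). Of its exon bases, 18.3% lie within Zmynd15. Ccl8 was rare, at 0.781 ± 0.198, 0.403 ± 0.16, 0.346 ± 0.0952 CPM (mean ± SD) in the 3 groups, and was called lower in CEBPA-first (log2FC -1.18 ± 0.31).

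Other chemokine ligands were called in no direction against CSF3R-only. Ccl24 (eotaxin-2), a ligand of Ccr3, was at 1.47, 1.18, 1.11 and 1.24 CPM in the CSF3R-only samples, 1.01, 0.624 and 0.916 CPM in the CSF3R-first samples and 1.51, 3.14, 2.27 and 2.27 CPM in the CEBPA-first samples. It was highest in CEBPA-first and lowest in CSF3R-first, without overlap, and was the only chemokine ligand called higher in any of the comparisons, in CEBPA-first against CSF3R-first (log2FC 1.43 ± 0.25, adjusted p = 0.00071). Ccl2 (MCP-1), the main ligand of Ccr2, was at 15.2, 14.5, 16.2 and 9.74 CPM in the CSF3R-only samples, 10.2, 7.47 and 8.96 CPM in the CSF3R-first samples and 12.8, 8.05, 11.6 and 6.81 CPM in the CEBPA-first samples. The monocyte chemokine Ccl7 was at 4.28, 6.19, 8.59 and 3.33 CPM in the CSF3R-only samples, 4.26, 4.37 and 5.18 CPM in the CSF3R-first samples and 7.63, 5.3, 6.95 and 4.46 CPM in the CEBPA-first samples. Ccl25, the ligand of Ccr9, was at 8.25, 6.37, 5.83 and 6.32 CPM in the CSF3R-only samples, 6.88, 6.58 and 6.23 CPM in the CSF3R-first samples and 5.99, 5.83, 5.7 and 6.92 CPM in the CEBPA-first samples. The groups of these 3 genes overlapped in the comparisons with CSF3R-only, and so did those of Ccl5, Ccl12 and Ccl27a. Cxcl10, an interferon-induced ligand of Cxcr3, had a log2FC of -0.6 ± 0.18 in CEBPA-first against CSF3R-only and -0.83 ± 0.19 against CSF3R-first, under the size needed for a call. Ccl22 was at most 0.382 CPM, with 0 to 19 counts per library, and its lower call in CEBPA-first against CSF3R-first (log2FC -2.32 ± 0.86) was lost on leaving out any of 5 single libraries, while without CEBPA-first replicate C the log2FC was -3.52. Ccl27a cannot be told from near-identical gene copies over its whole transcript.

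Of the 13 chemokine receptors, 7 were called lower and 1 higher in CEBPA-first against CSF3R-only, 0 lower and 1 higher in CSF3R-first against CSF3R-only, and 5 lower and 0 higher in CEBPA-first against CSF3R-first with edgeR's quasi-likelihood test. Where edgeR called 0, 5 were lower and 0 higher at an unadjusted p under 0.05, and DESeq2 called 0 as well. The shares lower were 53.8%, 0% and 38.5%, beside the same 19.0%, 4.53% and 10.3% of all genes, and the 1 higher in each of the first 2 comparisons is 7.69%, beside 8.07% and 2.13%. Cxcr2, the receptor of Cxcl1, Cxcl2, Cxcl3 and Cxcl5 on neutrophils, was at 546, 464, 506 and 484 CPM in the CSF3R-only samples, 360, 200 and 243 CPM in the CSF3R-first samples and 72.5, 58.5, 85.5 and 47.6 CPM in the CEBPA-first samples. The groups were separate in each comparison, and CEBPA-first was 7.58-fold below CSF3R-only (log2FC -2.92 ± 0.20, adjusted p = 5.3e-08) and 4.05-fold below CSF3R-first (log2FC -2.02 ± 0.20). Its neighbour Cxcr1 was at 1.45, 1.56, 1.81 and 1.47 CPM in the CSF3R-only samples, 3.55, 1.41 and 3.24 CPM in the CSF3R-first samples and 3.61, 3.1, 5.43 and 2.94 CPM in the CEBPA-first samples. Here the direction was opposite: each CEBPA-first sample was above every CSF3R-only sample (log2FC 1.26 ± 0.27, adjusted p = 0.00097), while CSF3R-first replicate B was below CSF3R-only and A and C were above it.

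The receptors of inflammatory monocytes were among the most abundant members. Ccr2, which binds Ccl2 and Ccl7 and lets monocytes leave the marrow, was at 1060, 1040, 901 and 915 CPM in the CSF3R-only samples, 872, 549 and 620 CPM in the CSF3R-first samples and 412, 369, 417 and 291 CPM in the CEBPA-first samples. Ccr1, a receptor of Ccl3, Ccl6 and Ccl9, was at 709, 699, 640 and 624 CPM in the CSF3R-only samples, 599, 406 and 440 CPM in the CSF3R-first samples and 328, 291, 336 and 239 CPM in the CEBPA-first samples. In both genes CSF3R-first lay between the other groups without overlap, and CEBPA-first was lower than CSF3R-only by 2.63-fold and 2.24-fold. Between both orders their log2FC was -0.87 and -0.69, neither of them called.

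Among the rarer receptors, Cxcr5 and Ccr4 were called lower in CEBPA-first against CSF3R-only. Cxcr5, the receptor of the B-cell follicle chemokine, was at 2.27, 1.76, 1.75 and 2.39 CPM in the CSF3R-only samples, 1.58, 1.21 and 1.33 CPM in the CSF3R-first samples and 0.513, 0.273, 0.576 and 0.37 CPM in the CEBPA-first samples. Ccr4, a receptor of Ccl22, was at 0.799, 1.02, 1.71 and 1.06 CPM in the CSF3R-only samples, 0.507, 0.785 and 0.885 CPM in the CSF3R-first samples and 0.0513, 0.119, 0.25 and 0.102 CPM in the CEBPA-first samples. For both, CEBPA-first was below all other samples, at 4.75-fold and 8.9-fold under CSF3R-only. Ccr9 had only 2 to 17 counts per library, and its call against CSF3R-only (log2FC -1.21 ± 0.46) was lost on leaving out any of 4 libraries. Cxcr4, which holds progenitors in the marrow niche, was at 28.7, 27.4, 28.4 and 28 CPM in the CSF3R-only samples, 31.1, 29.7 and 28.8 CPM in the CSF3R-first samples and 30.4, 33, 30.2 and 32 CPM in the CEBPA-first samples. Its log2FC was 0.16 ± 0.06 in CEBPA-first against CSF3R-only and 0.08 ± 0.06 in CSF3R-first, neither of them called. Cxcr3 was at 1.45, 1.66, 0.887 and 0.855 CPM in the CSF3R-only samples, 2.15, 1.99 and 1.6 CPM in the CSF3R-first samples and 1.54, 1.19, 1.29 and 1.42 CPM in the CEBPA-first samples. Ccr3, the eotaxin receptor, was at 1.04, 1.76, 1.51 and 1.3 CPM in the CSF3R-only samples, 1.42, 1.19 and 1.23 CPM in the CSF3R-first samples and 0.822, 1.18, 1.02 and 0.779 CPM in the CEBPA-first samples. Neither of these was called, and neither was Ccr7, at 1.05 ± 0.261, 1.24 ± 0.141, 0.749 ± 0.115 CPM (mean ± SD) in the 3 groups.

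Ccr10, the receptor of Ccl27 and Ccl28, was highest in CSF3R-first. It was at 9.57, 9.67, 8.95 and 9.83 CPM in the CSF3R-only samples, 34, 26.1 and 24.8 CPM in the CSF3R-first samples and 13.2, 12.9, 12.8 and 13.5 CPM in the CEBPA-first samples. All 3 groups were apart, with CSF3R-first 2.97-fold above CSF3R-only (log2FC 1.57 ± 0.10, adjusted p = 4.8e-07) and 2.16-fold above CEBPA-first (log2FC -1.11 ± 0.10 for CEBPA-first against CSF3R-first, adjusted p = 3.5e-06). The second of these calls was lost without CSF3R-first replicate A, at log2FC -0.95. Il20ra, a receptor chain of IL-19, IL-20 and IL-24, was at 15.4, 17.2, 17.2 and 17.9 CPM in the CSF3R-only samples, 40, 32.8 and 34.4 CPM in the CSF3R-first samples and 30, 29.3, 31.8 and 26.6 CPM in the CEBPA-first samples. It was higher in both double-mutant groups than in CSF3R-only without overlap, and was called in CSF3R-first (log2FC 1.08 ± 0.09) but not in CEBPA-first (log2FC 0.8 ± 0.08); without CSF3R-first replicate A the former was 0.99. The direct difference between both orders was -0.28 ± 0.09, which was not called.

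**Figure D2:**
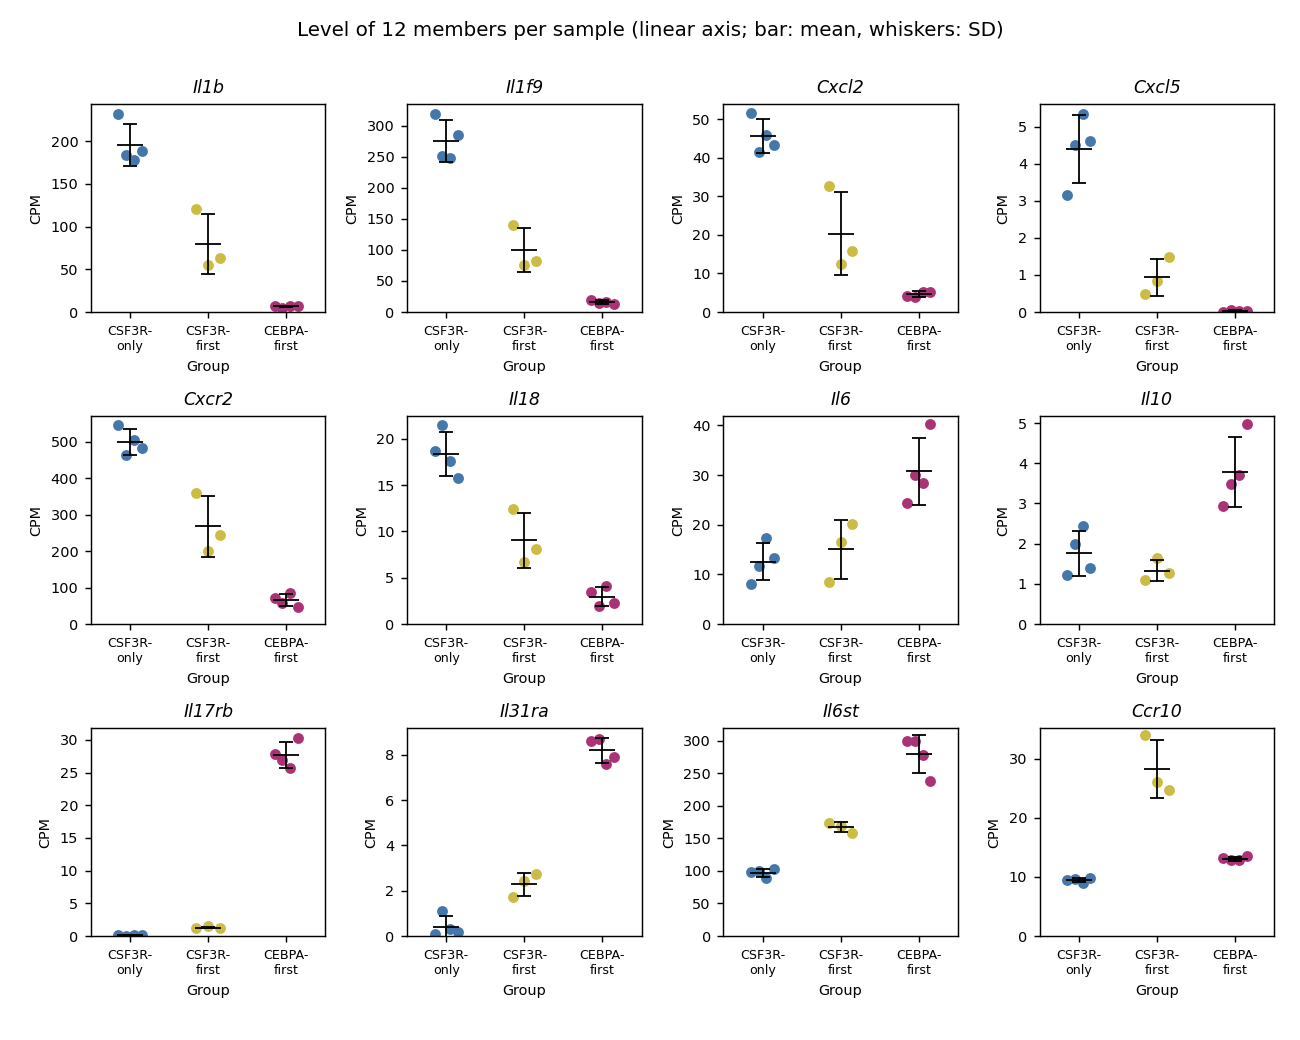
CPM of 12 members in each sample (points), with the mean (horizontal bar) and SD (whiskers) per group, on linear axes that start at 0 and differ between panels. Il1b, Il1f9, Cxcl2, Cxcl5, Cxcr2 and Il18 step down over the groups from left to right, Il6 and Il10 are highest in CEBPA-first, Il17rb, Il31ra and Il6st step up, and Ccr10 is highest in CSF3R-first.

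The interleukin ligands were mostly lower in CEBPA-first. Of 15 tested, 9 were called lower and 2 higher in CEBPA-first against CSF3R-only, 4 lower and 0 higher in CSF3R-first against CSF3R-only (edgeR's quasi-likelihood test, with 0 higher at an unadjusted p under 0.05 and 0 by DESeq2), and 7 lower and 2 higher in CEBPA-first against CSF3R-first. That is 60.0%, 26.7% and 46.7% lower, beside 19.0%, 4.53% and 10.3% of all genes, and 13.3%, 0% and 13.3% higher, beside 8.07%, 2.13% and 2.57%. Il1b, the inflammatory cytokine released after cleavage by caspase-1, was at 232, 184, 178 and 188 CPM in the CSF3R-only samples, 120, 55.3 and 62.9 CPM in the CSF3R-first samples and 7.0, 5.08, 7.03 and 7.2 CPM in the CEBPA-first samples. No CEBPA-first sample was above 7.20 CPM, and no CSF3R-first sample reached the CSF3R-only range. CEBPA-first was 29.7-fold below CSF3R-only (log2FC -4.89 ± 0.24, adjusted p = 3.4e-09) and 12.1-fold below CSF3R-first (log2FC -3.59 ± 0.24, adjusted p = 3.5e-07), and CSF3R-first was 2.46-fold below CSF3R-only (log2FC -1.3 ± 0.22, adjusted p = 0.00082). Il1bos, transcribed from the other strand across the start of Il1b, had 413 to 840 counts in the CEBPA-first libraries, where Il1b had 298 to 564, and 578 to 1178 in CSF3R-only. In CSF3R-first replicates A, B and C Il1bos had 253, 686 and 1213 counts. It shares 1.31% of the exon bases of Il1b, and the counting is not stated to use strand.

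Il1f9 (IL-36 gamma), which signals through Il1rl2, was at 320, 251, 248 and 285 CPM in the CSF3R-only samples, 140, 76.1 and 81.7 CPM in the CSF3R-first samples and 19.1, 14.5, 16.9 and 12.6 CPM in the CEBPA-first samples. The 3 groups stood apart, with CEBPA-first 17.5-fold below CSF3R-only (log2FC -4.13 ± 0.20) and 6.3-fold below CSF3R-first (log2FC -2.66 ± 0.20). Its neighbour Il1f6 (IL-36 alpha) had 48, 59, 50 and 95 counts in CSF3R-only, 93, 21 and 23 in CSF3R-first and 2, 3, 0 and 3 in CEBPA-first. CEBPA-first was lowest again, while CSF3R-first replicate A was above every CSF3R-only sample on the CPM scale and B and C were below them all. Il1a, which acts on the same receptor as Il1b, was at 1.38, 1.36, 1.37 and 1.55 CPM in the CSF3R-only samples, 5.82, 0.765 and 0.648 CPM in the CSF3R-first samples and 0.12, 0.17, 0.0768 and 0.14 CPM in the CEBPA-first samples. It was 10.9-fold below CSF3R-only in CEBPA-first (log2FC -3.44 ± 0.69). In CSF3R-first the direction rested on 1 library: the log2FC against CSF3R-only was 0.75 ± 0.57 with all 3 (adjusted p = 0.32) and -1.01 without replicate A (adjusted p = 0.0053, edgeR's quasi-likelihood test). Of its exon bases 11.2% overlap Gm14023. Il18, another cytokine activated by caspase-1, was at 18.7, 21.5, 17.6 and 15.8 CPM in the CSF3R-only samples, 12.4, 6.72 and 8.06 CPM in the CSF3R-first samples and 3.49, 1.91, 4.09 and 2.32 CPM in the CEBPA-first samples. The groups did not overlap, at log2FC -2.65 ± 0.24 in CEBPA-first and -1.02 ± 0.24 in CSF3R-first against CSF3R-only, and the latter call was lost without CSF3R-only replicate B or CSF3R-first replicate B or C.

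Beyond the IL-1 family, Il34, a ligand of the receptor of macrophage colony-stimulating factor, was detected in CSF3R-only and nearly absent in CEBPA-first. It had 15, 33, 34 and 29 counts in CSF3R-only, 10, 5 and 16 in CSF3R-first and 0, 1, 0 and 0 in CEBPA-first. The single count in CEBPA-first against 111 in CSF3R-only corresponds to 0.761% of the CSF3R-only level, with an exact 95% interval of 0.0191% to 4.33% that covers counting error only. Il16, a ligand of CD4 made by many leukocytes, was at 139, 123, 114 and 127 CPM in the CSF3R-only samples, 113, 82.3 and 85.2 CPM in the CSF3R-first samples and 60.8, 56.6, 59.1 and 50.6 CPM in the CEBPA-first samples. Il4, known as a product of basophils, mast cells and T helper cells, was at 1.53, 1.68, 2.64 and 2.01 CPM in the CSF3R-only samples, 1.36, 1.39 and 1.3 CPM in the CSF3R-first samples and 0.599, 0.46, 0.576 and 0.753 CPM in the CEBPA-first samples. Both were lowest in CEBPA-first without overlap, at log2FC -1.15 ± 0.10 and -1.71 ± 0.21 against CSF3R-only, and Il4 was also called against CSF3R-first (log2FC -1.16 ± 0.23). The mast cell and basophil markers summed to 2140 to 3150, 1340 to 1620 and 1380 to 1810 CPM in the 3 groups, with 5 of 10 tested called lower and 1 (Fcer1a) higher. Near-identical sequence in other genes covers 26.1% of the Il16 transcript. Il17c had 4 to 21 counts per library, and its lower call (log2FC -1.16 ± 0.47) was lost without any of 4 libraries.

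Il6 and Il10 went the other way. Il6, the ligand of Il6ra and Il6st, was at 8.12, 11.7, 17.3 and 13.2 CPM in the CSF3R-only samples, 8.5, 16.5 and 20.1 CPM in the CSF3R-first samples and 24.4, 30, 28.4 and 40.3 CPM in the CEBPA-first samples. CEBPA-first lay above all other samples, 2.45-fold over CSF3R-only (log2FC 1.29 ± 0.26, adjusted p = 0.00057) and 2.04-fold over CSF3R-first (log2FC 1.03 ± 0.28, adjusted p = 0.0096), while CSF3R-first overlapped CSF3R-only. The difference from CSF3R-first was no longer called without CEBPA-first replicate D or CSF3R-first replicate A, at log2FC down to 0.75. Il10, a cytokine that restrains inflammation, was at 1.23, 1.98, 2.44 and 1.39 CPM in the CSF3R-only samples, 1.1, 1.63 and 1.26 CPM in the CSF3R-first samples and 2.93, 3.48, 3.71 and 4.98 CPM in the CEBPA-first samples. Again CEBPA-first was highest without overlap (log2FC 1.1 ± 0.23 against CSF3R-only and 1.51 ± 0.26 against CSF3R-first), and the former call was lost without any of 3 single libraries, at log2FC down to 0.94. Il15, Il12a and Il27 were called in no comparison. Il15, which supports NK and memory T cells, was at 8.47, 6.75, 7.48 and 7.21 CPM in the CSF3R-only samples, 10.5, 5.27 and 9.4 CPM in the CSF3R-first samples and 10.1, 8.99, 11.5 and 9.38 CPM in the CEBPA-first samples. Il12a, the p35 chain of IL-12, was at 9.55, 10.6, 11.9 and 11.5 CPM in the CSF3R-only samples, 6.29, 7.71 and 9.95 CPM in the CSF3R-first samples and 6.44, 6.1, 6.34 and 6.66 CPM in the CEBPA-first samples. Il27 was at 7.32, 6.33, 6.77 and 7.19 CPM in the CSF3R-only samples, 9.44, 6.1 and 7.16 CPM in the CSF3R-first samples and 7.6, 6.41, 8.56 and 6.26 CPM in the CEBPA-first samples. For Il27 the 3 groups overlapped, while for Il15 and Il12a each CEBPA-first sample lay outside the CSF3R-only range, at log2FC 0.42 ± 0.17 and -0.77 ± 0.13. Il7 had 5 to 31 counts per library and was not called (log2FC 0.46 ± 0.34 in CEBPA-first against CSF3R-only).

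Of the 4 genes of antagonists, decoys and binding proteins, 3 were called lower in CEBPA-first against CSF3R-only and 2 against CSF3R-first, where 19.0% and 10.3% of all genes were, with 0 called in CSF3R-first against CSF3R-only (edgeR's quasi-likelihood test, with 2 lower at an unadjusted p under 0.05 and 0 called by DESeq2). Il1r2, a decoy receptor that binds IL-1 without signalling, was at 485, 554, 546 and 487 CPM in the CSF3R-only samples, 696, 355 and 547 CPM in the CSF3R-first samples and 264, 185, 283 and 152 CPM in the CEBPA-first samples. CSF3R-first spread across the CSF3R-only range in both directions, and CEBPA-first was below both (log2FC -1.23 ± 0.21 and -1.27 ± 0.22). Il1rn, the IL-1 receptor antagonist, was at 77.4, 70.2, 80.1 and 78.4 CPM in the CSF3R-only samples, 76.4, 24 and 32.6 CPM in the CSF3R-first samples and 16.3, 12.5, 15.8 and 9.65 CPM in the CEBPA-first samples. CSF3R-first replicate A was within the CSF3R-only range, B and C were under all CSF3R-only samples, and CEBPA-first was 5.65-fold below CSF3R-only. Without that replicate, CSF3R-first was called below CSF3R-only, at log2FC -1.43. Il18bp, which neutralises IL-18, was at 12.7, 16.2, 13.8 and 11.1 CPM in the CSF3R-only samples, 9.6, 9.54 and 7.14 CPM in the CSF3R-first samples and 4.5, 4.96, 5.64 and 4.43 CPM in the CEBPA-first samples. Il22ra2, the soluble IL-22 receptor, was at 2.38, 2.94, 1.81 and 2.25 CPM in the CSF3R-only samples, 2.88, 2.11 and 2.31 CPM in the CSF3R-first samples and 3.27, 2.85, 2.63 and 2.48 CPM in the CEBPA-first samples. It overlapped between all groups, whereas Il18bp was separate in each comparison and called only in CEBPA-first against CSF3R-only (log2FC -1.46 ± 0.14). Il4i1, a secreted amino acid oxidase, had 3 to 16 counts per library and was not called, and 86.3% of its exon bases overlap other genes.

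Calls among the interleukin receptor subunits went in both directions. Of 31 tested, 9 were called lower and 5 higher in CEBPA-first against CSF3R-only, 1 lower and 3 higher in CSF3R-first against CSF3R-only, and 4 lower and 4 higher in CEBPA-first against CSF3R-first. The shares lower were 29.0%, 3.23% and 12.9%, beside 19.0%, 4.53% and 10.3% of all genes, and the shares higher 16.1%, 9.68% and 12.9%, beside 8.07%, 2.13% and 2.57%. Of the 5 called higher in CEBPA-first against CSF3R-only, Il6st alone had at least 10 counts in every sample. Il17rb, Il31ra, Il2rb and Il9r had them in 7, 10, 5 and 4 of the 11 samples, and these 4 are also those called higher between both orders. The shares higher therefore rest largely on members with few counts in the groups where they were low. Il17rb, the receptor chain of IL-25 and IL-17B, gave the largest rise of all members. It was at 0.108, 0.0601, 0.121 and 0.127 CPM in the CSF3R-only samples, 1.2, 1.47 and 1.23 CPM in the CSF3R-first samples and 27.8, 26.9, 25.7 and 30.3 CPM in the CEBPA-first samples. The lowest sample of each group was far above the highest sample of the group beneath it. CEBPA-first was 258-fold above CSF3R-only (log2FC 8.01 ± 0.15, adjusted p = 3.9e-12), CSF3R-first 12.1-fold (log2FC 3.6 ± 0.19, adjusted p = 9.3e-08), and CEBPA-first 21.3-fold above CSF3R-first (log2FC 4.41 ± 0.12, adjusted p = 5.7e-10). The CSF3R-only libraries held 5, 3, 6 and 8 counts of it, so the first 2 of these folds rest on few counts. The genes of its ligands, Il25 and Il17b, had no count in any sample, and its usual partner Il17ra was at 424, 377, 368 and 384 CPM in the CSF3R-only samples, 313, 268 and 298 CPM in the CSF3R-first samples and 210, 212, 222 and 200 CPM in the CEBPA-first samples. All CEBPA-first samples of Il17ra lay beneath the CSF3R-only samples (log2FC -0.88 ± 0.07), under the size needed for a call. Near-identical sequence in Actr8 covers 5.59% of the Il17rb transcript.

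Of the receptor chains of the IL-6 family, Il31ra and Il6st were called higher. Il31ra, which pairs with the oncostatin M receptor to bind IL-31, was at 0.0864, 1.1, 0.323 and 0.158 CPM in the CSF3R-only samples, 1.73, 2.41 and 2.72 CPM in the CSF3R-first samples and 8.61, 8.71, 7.58 and 7.89 CPM in the CEBPA-first samples. CSF3R-only replicate B was above the other 3 of its group, and the groups still did not overlap, at 19.8-fold in CEBPA-first (log2FC 4.31 ± 0.46) and 5.55-fold in CSF3R-first (log2FC 2.47 ± 0.49) over CSF3R-only. Without that library these log2FC were 5.42 and 3.58. Its neighbour on chromosome 13, Il6st, the gp130 chain shared by the IL-6 family, was at 97.6, 100, 88.8 and 103 CPM in the CSF3R-only samples, 173, 169 and 158 CPM in the CSF3R-first samples and 300, 300, 278 and 238 CPM in the CEBPA-first samples. It rose stepwise without overlap, with log2FC 1.52 ± 0.08 in CEBPA-first (adjusted p = 6.1e-09), 0.78 ± 0.08 in CSF3R-first and 0.74 ± 0.09 between both orders, of which the first was called. Il6ra, the IL-6 binding chain, had a log2FC of -0.49 ± 0.11 in CEBPA-first and was not called. Il11ra1 was at 13.5 ± 1.27, 22 ± 1.15, 16.4 ± 0.682 CPM (mean ± SD) and was not called, and 99.0% of its transcript has near-identical copies.

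The chains around the common gamma receptor differed among themselves. Il2ra, the high-affinity IL-2 chain, was at 15.2, 14, 23.9 and 18.1 CPM in the CSF3R-only samples, 7.85, 8.21 and 10.6 CPM in the CSF3R-first samples and 2.31, 2.92, 4.2 and 2.64 CPM in the CEBPA-first samples. Il7r, the IL-7 receptor alpha chain, was at 33.4, 39.4, 52.2 and 40.3 CPM in the CSF3R-only samples, 26.5, 22.6 and 25.4 CPM in the CSF3R-first samples and 7.98, 7.09, 8.43 and 7.3 CPM in the CEBPA-first samples. Both were lowest in CEBPA-first without overlap, 5.93-fold and 5.37-fold under CSF3R-only, and the call of Il2ra in CSF3R-first (log2FC -1.0 ± 0.21) was lost without any of 4 single libraries. Il21r, the IL-21 receptor, was at 90.8, 88.6, 77 and 80 CPM in the CSF3R-only samples, 92.5, 68 and 71.3 CPM in the CSF3R-first samples and 44.3, 38, 46.4 and 34.1 CPM in the CEBPA-first samples. In it CSF3R-first overlapped CSF3R-only, and CEBPA-first was below both (log2FC -1.05 ± 0.11); without CEBPA-first replicate D that value was -0.97. Il9r and Il2rb were rare and higher in CEBPA-first. Il9r, the receptor of a mast cell and T cell growth factor, had 1, 8, 3 and 5 counts in CSF3R-only, 4, 7 and 7 in CSF3R-first and 29, 25, 30 and 63 in CEBPA-first. Il2rb, a signalling chain for IL-2 and IL-15, had 0, 3, 11 and 1 counts in CSF3R-only, 0, 0 and 4 in CSF3R-first and 21, 17, 21 and 14 in CEBPA-first. CEBPA-first was above all other samples for Il9r (log2FC 2.8 ± 0.41), while for Il2rb CSF3R-only replicate C reached into its range and the call (log2FC 2.03 ± 0.73) was lost without any of 4 single libraries, with log2FC from 1.64 without CSF3R-only replicate D to 3.48 without C. Il2rg itself was at 139 ± 11.4, 104 ± 19.2, 73.8 ± 2.86 CPM (mean ± SD), with log2FC -0.91 ± 0.10 in CEBPA-first, under the size for a call, and 43.7% of its transcript is shared with Gm20489. Il15ra, which presents IL-15, was higher in both double-mutant groups than in CSF3R-only without overlap, at log2FC 0.35 and 0.32, neither of them called.

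Receptors of IL-4, IL-10 and IL-13 split. Il4ra, the shared chain of the IL-4 and IL-13 receptors, was at 1190, 1110, 1040 and 1130 CPM in the CSF3R-only samples, 1160, 1060 and 1110 CPM in the CSF3R-first samples and 1100, 1140, 1110 and 955 CPM in the CEBPA-first samples. The groups overlapped completely, with log2FC -0.05 ± 0.07 and -0.01 ± 0.08 against CSF3R-only. Il13ra1, its partner chain, was at 247, 233, 218 and 227 CPM in the CSF3R-only samples, 175, 99 and 127 CPM in the CSF3R-first samples and 74.3, 58.6, 76.8 and 41.2 CPM in the CEBPA-first samples. Il10ra, the binding chain for IL-10, was at 114, 99.8, 91.9 and 99.3 CPM in the CSF3R-only samples, 79.8, 50.7 and 54.8 CPM in the CSF3R-first samples and 33.9, 31.1, 38.4 and 24.4 CPM in the CEBPA-first samples. Il10rb, the second chain of that receptor, was at 149, 137, 125 and 139 CPM in the CSF3R-only samples, 122, 91.4 and 92.4 CPM in the CSF3R-first samples and 57.4, 49.9, 57 and 46.9 CPM in the CEBPA-first samples. These 3 were lowest in CEBPA-first without overlap, at 3.69-fold, 3.18-fold and 2.61-fold below CSF3R-only, so that Il10 and its receptor chains went in opposite directions there. Il13ra1 was the one of these 3 called between both orders (log2FC -1.09 ± 0.20), and it lost that call without CEBPA-first replicate D or CSF3R-first replicate A. Near-identical sequence in Gm21970 covers 20.5% of the Il10rb transcript.

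Of the IL-1 family receptors, Il1rl2, the receptor of IL-36, and Il18r1, the IL-18 binding chain, were called lower in CEBPA-first against CSF3R-only. Their log2FC of -1.02 ± 0.14 and -1.01 ± 0.16 lay at the limit of a call and dropped below it on leaving out any of 3 and any of 5 single libraries. Il1rl1 (ST2), the receptor of IL-33 on mast cells and basophils, was at 113, 145, 175 and 143 CPM in the CSF3R-only samples, 71.6, 119 and 115 CPM in the CSF3R-first samples and 85.9, 98.2, 99 and 114 CPM in the CEBPA-first samples. It overlapped between groups (log2FC -0.54 ± 0.16 in CEBPA-first), and Il1r1, Il1rap and Il18rap had log2FC of -0.44, -0.16 and -0.35, none of them called. Il23r, a receptor chain of IL-23, had 16, 12, 28 and 15 counts in CSF3R-only, 32, 21 and 9 in CSF3R-first and 3, 1, 1 and 2 in CEBPA-first, and CEBPA-first was below every other sample (log2FC -3.51 ± 0.61). The remaining subunits, Il3ra, Il5ra, Il12rb1, Il12rb2, Il20rb and Il27ra, were called in no comparison, with log2FC in CEBPA-first against CSF3R-only of -0.48, -0.83, 0.13, 0.73, 0.5 and -0.46.

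**Figure D3:**
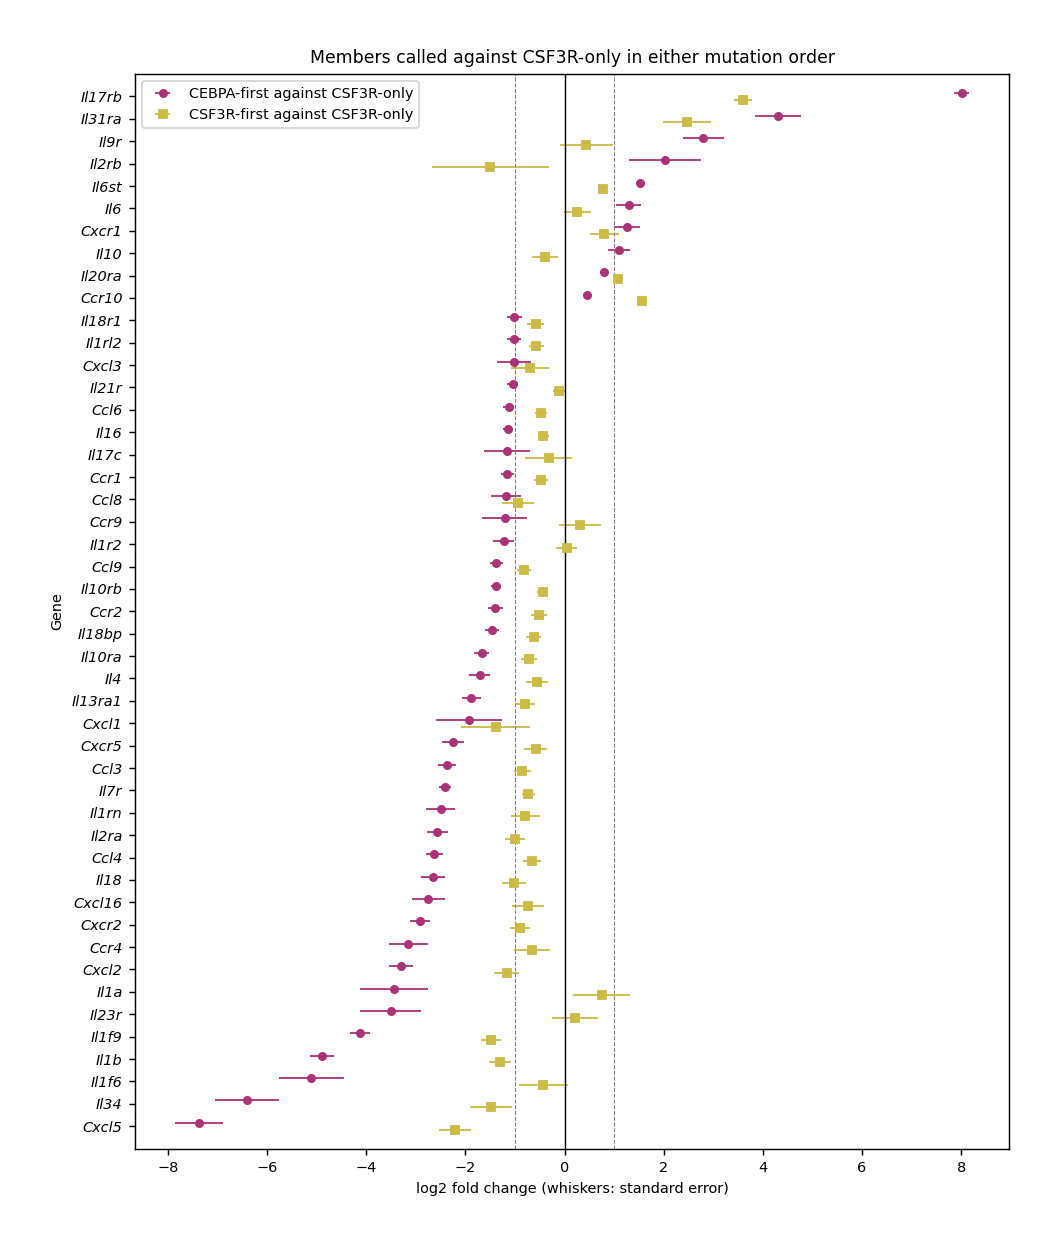
log2 fold change (x axis, whiskers: standard error) of members called in either mutation order against CSF3R-only, sorted by CEBPA-first; circles are CEBPA-first and squares CSF3R-first, and dashed lines mark -1 and 1. Il17rb and Il31ra lie furthest right for both, most ligands lie left, and the fitted value of Il34 in CEBPA-first rests on 1 count.

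In CSF3R-first the replicates were uneven. Among the 38 members called lower in CEBPA-first against CSF3R-only, replicate A was the highest of the 3 CSF3R-first samples in 31 and replicate B the lowest in 25. The same was not counted over all genes, so the unevenness is not shown to be particular to the members. Without replicate A, 18 members were called in CSF3R-first against CSF3R-only (15 lower) in place of 11 (7 lower), and without replicate B 8 (3 lower). Over all genes the calls went the same way, from 1045 of 15703 tested to 1435 of 16122 without replicate A and 819 of 16100 without B. Members called lower without replicate A but not with all samples, besides Il1a, were Il1rn, Ccl8, Cxcl1, Cxcl3, Cxcl16, Cxcr2, Il1f6 and Il13ra1. The summed neutrophil markers of CSF3R-first also spread widely, from 14600 to 25500 CPM, and the part of that spread in these differences was not tested. In CEBPA-first against CSF3R-only the number called stayed between 41 and 46 whichever sample was left out.

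Many members lie next to each other in the genome, and neighbours within 500 kb were compared as a description. The 4 tested members of the CXC cluster at chr5:90759360-90905938 (Cxcl5, Cxcl3, Cxcl1 and Cxcl2) were all called lower in CEBPA-first against CSF3R-only, from -7.38 to -1.02. Of the CC cluster at chr11:83525778-83664683, Ccl9, Ccl6, Ccl3 and Ccl4 were called lower and Ccl5 was not, while in the neighbouring cluster at chr11:82035571-82116799 Ccl8 was called lower and Ccl2, Ccl7 and Ccl12 were not. The 3 IL-1 family members at chr2:24186476-24351494 (Il1f9, Il1f6 and Il1rn) were all lower, from -5.11 to -2.50. Among the chemokine receptors on chromosome 9, Ccr9, Ccr1 and Ccr2 were lower and Ccr3 was not called, and at chr1:40074079-40551705 the IL-1 family receptors Il1r2, Il1rl2 and Il18r1 were lower and Il1r1, Il1rl1 and Il18rap were not called.

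**Figure D4:**
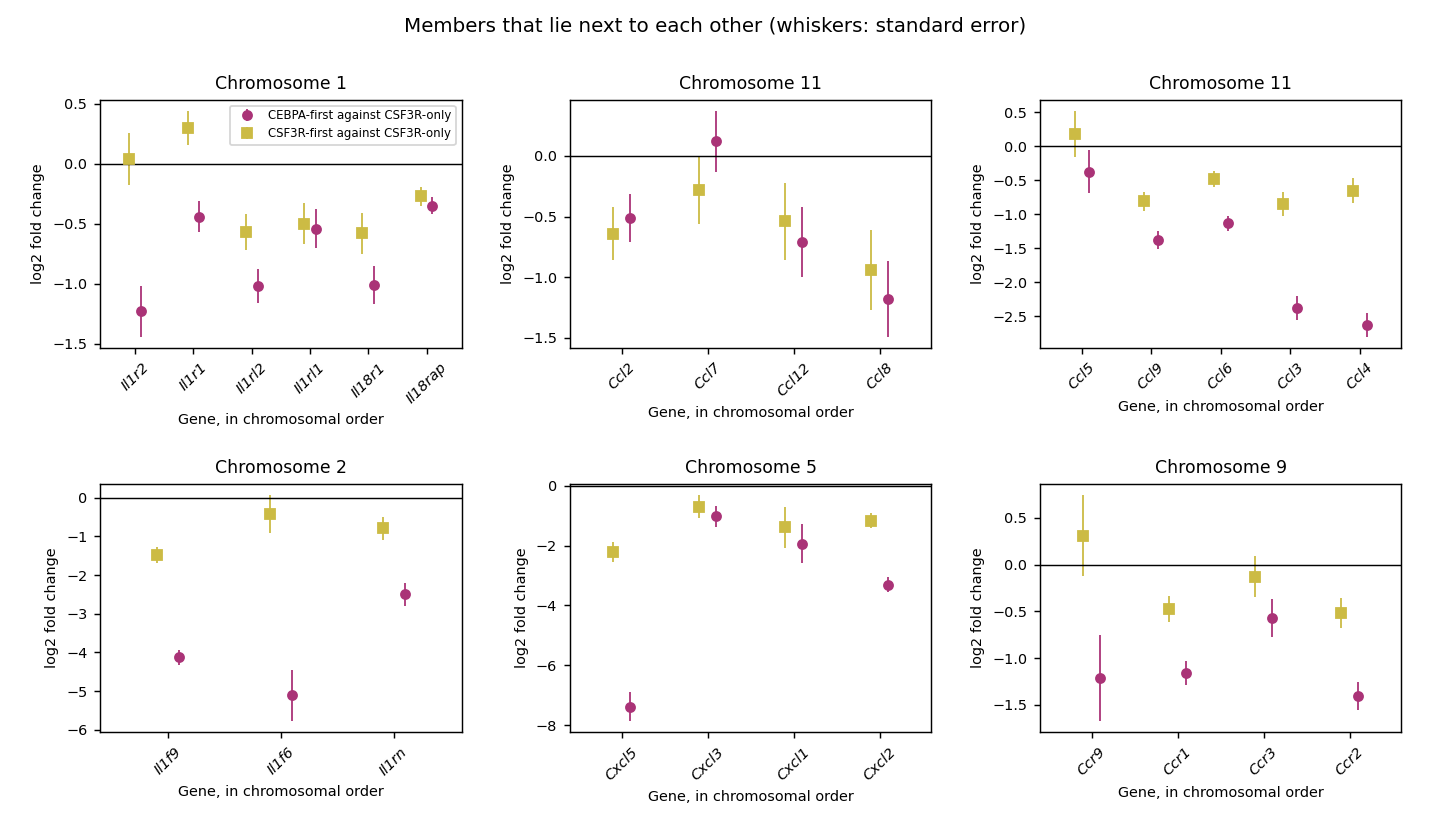
log2 fold change (y axis, whiskers: standard error) of tested members in 6 groups of neighbouring genes, in chromosomal order with equal spacing; circles are CEBPA-first and squares CSF3R-first, each against CSF3R-only. In CEBPA-first the values reach -7.38 in the CXC cluster on chromosome 5, and within a cluster neighbouring genes can differ by several units.

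Related genes outside the symbol rule were read from lists. In CEBPA-first against CSF3R-only, where 19.0% of all genes were called lower, the counts were as follows. Of 8 tested other genes of the chemokine system, 5 were called lower and the other 3 were not called. Those called were the platelet chemokines Pf4 and Ppbp, Cx3cr1, the receptor of fractalkine on monocytes, and the non-signalling receptors Ackr1 and Ccrl2. Ppbp was at 304, 82.7 and 9.06 CPM on average in the groups, in the same order as before, and Cx3cr1 at 43.4, 16.6 and 1.97 CPM. Ppbp is also among the megakaryocyte and platelet markers given above, and Cx3cr1 among those of monocytes and macrophages. Of 9 tested genes in a list of other cytokines and cytokine receptor chains, 7 were called lower. These were the receptor chains Osmr, Lifr, Crlf2 and Ifnlr1 and the cytokine genes Ebi3, Tslp and Clcf1. Osmr, the partner of Il31ra, was at 3.41, 1.98 and 0.406 CPM, and Lifr at 28, 10.6 and 3.86 CPM. Csf2rb, the shared chain of the IL-3 and IL-5 receptors, was not called, at 1850, 1460 and 1280 CPM, and neither was Csf2rb2. Of 15 genes of IL-1 processing and signalling, 7 were called lower: the inflammasome genes Nlrp3 and Pycard, Casp4, the kinases Irak2 and Irak3, and the NF-kB inhibitors Nfkbia and Tnfaip3. Casp1, which cleaves IL-1 beta and IL-18, was not called (mean 58.3, 45.7 and 46.6 CPM), nor were Myd88, Irak1, Irak4 and Traf6. In CSF3R-first against CSF3R-only, 3, 2 and 0 genes of these lists were called lower by edgeR's quasi-likelihood test, where 4.53% of all genes were. In the last list 10 were lower at an unadjusted p under 0.05, and DESeq2 called 0; log2FC over all 15 genes of that list ran from -0.97 to 0.12.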

How the data were processed

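Counts per gene of 11 RNA-seq libraries were deposited by the authors as whole numbers without normalization, 1 column per sample. Per the study's methods, RNA of sorted and cultured cells was amplified with a SMARTer low input kit, sequenced as single reads, trimmed with Trimmomatic and aligned with STAR. The submitters' processing notes name the build mm10, STAR and DESeq2. The counting tool, its annotation and its use of strand are not given in the sources used here, so a read may count for more than one gene where genes overlap or run antisense. Members, lists and tests were chosen with earlier results of these data known. Groups were taken from the sample titles, and 0 columns of the table were left out.

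Counts were analysed in R 4.3.3 with edgeR 4.0.16: filterByExpr (15703 genes left), TMM scaling and the quasi-likelihood test in a single fit of the 3 groups without covariates, with Benjamini-Hochberg adjustment over all genes tested. A gene was called where the adjusted p was under 0.05 and the log2 fold change at least 1 in size. The standard error of a log2 fold change is its size over the square root of the F statistic, and a prior count of 2 was added for log2 CPM. The main tests between groups all came from this fit. Total counts of 47905747 to 72268346 put 3 counts, the limit that a count of 0 allows, at 0.0415 to 0.0626 CPM of unscaled library size, which covers counting error only. Symbols, positions and exon lengths came from GENCODE M21 (GRCm38) by Ensembl identifier, stretches nearly identical to other genes (from 100 bp and 97% identity on) from BLAST 2.17.0, and promoters from RefSeq. The 279 identifiers without a symbol held at most 0.0279% of a library. Every value is given per sample for up to 8 called members of a class by level, for those against the main direction of their class and for up to 3 uncalled by level, and a few others were added after their values were seen. 1 member stays in the counts but is not reported or drawn here. Marker and pathway lists were read by counts of calls. The fit was also run on simulated counts, whose outcome is not given here. Alternatives were DESeq2 1.42.0, other scalings and filters, only the 2 groups compared, a replicate block, other thresholds, a prior count of 0.5 and each sample left out. Figures were drawn with matplotlib 3.10.9.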

Additional observations from a re-analysis of the deposited data

Results flagged for a closer look

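Among 174 sets of 4 samples (87 members in CSF3R-only and in CEBPA-first), 11 had a sample whose distance from the rest passed Dixon's 95% limit, where chance alone gives about 8.7, and CSF3R-first, with 3 samples, was not examined this way. Chemokine ligands gave 4 of these, all in CSF3R-only: Ccl3 at 63.1 CPM in replicate A against 45.3 to 48 in the others, Ccl4 at 40.5 CPM in replicate D against 44 to 44.6, Cxcl16 at 20.6 CPM in replicate C against 29 to 30.1, and Ccl22 at 0.323 CPM (16 counts) in replicate C against 0.0432 to 0.0792. Interleukin ligands gave 3: Il1b at 5.08 CPM in CEBPA-first replicate B against 7 to 7.2, Il1a at 1.55 CPM in CSF3R-only replicate D against 1.36 to 1.38, and Il34 at 0.017 CPM in CEBPA-first replicate B, a single count where the other 3 libraries had 0. The receptor subunit Il1r1 stood apart in both groups, at 10.7 CPM in CSF3R-only replicate A against 14.1 to 14.5 and at 7.7 CPM in CEBPA-first replicate D against 10.6 to 10.7. Il11ra1 reached 15.4 CPM in replicate B of CSF3R-only against 12.8 to 13, and Il17re at 0.202 CPM (10 counts) in CSF3R-only replicate C against 0.0158 to 0.04.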

How the results depend on the processing

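The numbers of members called in CEBPA-first against CSF3R-only, CSF3R-first against CSF3R-only and CEBPA-first against CSF3R-first were 46, 11 and 31. They were 42, 10 and 29 with DESeq2, and 29, 3 and 18 with edgeR's glmTreat, a test against a log2 fold change of 1, which split into 4, 2 and 2 higher and 25, 1 and 16 lower. By the adjusted p alone they were 68, 40 and 52, of which 17, 10 and 9 were higher and 51, 30 and 43 lower. With at least 10 counts in every sample fewer members were tested, and 33, 7 and 19 were called, 4, 2 and 3 of them higher. Over all genes the calls numbered 4244, 1045 and 2016 in the main fit and 4772, 1026 and 2099 with DESeq2. They numbered 2495, 201 and 799 with glmTreat, 11314, 6703 and 7578 by the adjusted p alone, and 2857, 566 and 1219 with such counts. For the members, leaving out single samples gave 41 to 46, 8 to 18 and 27 to 34 calls. In CSF3R-first against CSF3R-only the number lower ranged from 3, without CSF3R-first replicate B, to 15, without replicate A, where 18 were called in all. Of the called members, 10 of 46, 5 of 11 and 5 of 31 lost the call without some sample. In that comparison Il1a, not called with all samples, was called lower at -1.01 without replicate A and had a log2 fold change of 1.22 without C. Values of members not called changed sign without becoming calls in 66 cases.

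The labels do not say that a replicate letter marks a shared source. Deviations from the group means correlated at -0.107 to 0.362 between same-lettered samples, with 7 of 10 pairs above 0.1, and at -0.341 to 0.384 between other-lettered samples, with 5 of 30 above 0.1. Same-lettered pairs were above 0.1 more often, but not every one was, and not every sample correlated best with its own letter. These values do not settle whether the letters pair the samples, and the main fit did not use the letters. With the letter as a replicate block, 46, 13 and 30 members were called. Scaling to library totals only shifted the median log2 fold change of all genes by 0.13 in CEBPA-first against CSF3R-only and raised the share of higher calls among all genes from 29.9% to 40.2%; 40 members were then called, 9 higher and 31 lower. Under the alternatives that keep both thresholds, wherever a member could be tested, 68 of the 88 called values of single members kept their call throughout; over these alternatives 1554 of 1629 values kept it, 75 lost it and 0 changed sign. Of 3023 alternative values of members not called, 25 became calls without a change of sign. That number leaves out Il1a without CSF3R-first replicate A, where the call came with a change of sign. The mean log2 CPM moved beyond its SD with a prior count of 0.5 in 8 of 249 values. Calls were lost by members with few counts (Ccl22, Ccr9, Il17c) and by others with many more (Il2ra, Il18r1).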
